A study of Mus musculus with 868 samples.

Results

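The vitamin D, phosphate and calcium genes described here are 10 of the 24421 genes counted in each library of a mouse drug survey, and they were taken by symbol. They are the vitamin D genes Cyp24a1, Cyp27b1 and Vdr, the hormone receptor genes Pth1r and Kl, the phosphate transporter genes Slc34a1, Slc34a2 and Slc34a3, and the calcium genes Trpv5 and Calb1. All 10 were found by symbol in the count tables of all 24 tissues.

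The survey comprised 868 libraries from 24 tissues of C57BL/6N mice, a common laboratory strain, given 1 of 15 drugs or 1 of 3 control treatments. RNA from flash-frozen tissue was extracted with Trizol and sequenced as 3′ tags, so that each read marks the end of 1 transcript. Groups had 2 libraries per tissue, apart from Asenapine brain and Sofosbuvir jejunum with 4. The labels do not tie the libraries of a group to separate animals, so p-values measure the spread between libraries, which may be technical. That spread was estimated from all groups of a fit together, not from the compared groups alone.

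The treatments fell into 3 library sets that differed in expression whatever the treatment, and drugs were compared within a set only. These sets rest on the expression values and not on a label. In set A, APAP (2 hours) and Sofosbuvir were set against Sucrose (5% sucrose) and Untreated mice together. In set B, Alendronate, Risedronate, Asenapine, Lurasidone and Olanzapine had no control of their own, and each was set against the other 4. In set C, Aripiprazole, Cisplatin, Clozapine, Dox (2 mg/mL), EMPA (2 weeks), Lenalidomide, Repatha and Teriparatide were set against CMCTween, a vehicle of 0.5% CMC and 0.25% Tween80. All groups shared the strain, and the labels used here name no mutant allele and no age. Comparisons within a set share their controls, so they are not independent of each other.

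Total counts per library ranged from 451154 to 12811780, and the Untreated libraries, at 2875950 to 12811780, were among the deepest. The labelled tissues carried their markers. Summed proximal tubule markers gave 5463 to 5551 CPM (the count scaled to the library's total) in Untreated kidney, alveolar type 2 cell markers 27128 to 28181 CPM in lung and osteoblast markers 16022 to 16313 CPM in skull. The tissue labelled thyroid gland held the follicle markers at 44267 to 57354 CPM and also parathyroid markers at 6137 to 8448 CPM, most of it Pth, the parathyroid hormone gene, at 8407 and 6106 CPM.

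Active vitamin D is made in the kidney proximal tubule by the hydroxylase Cyp27b1, is broken down by the hydroxylase Cyp24a1, and acts through the nuclear receptor Vdr, which in the gut raises calcium uptake. Parathyroid hormone acts through Pth1r on kidney and bone; in the kidney it favours Cyp27b1 over Cyp24a1 and withdraws the phosphate transporters Slc34a1 and Slc34a3 from the brush border. Klotho, the product of Kl, is the co-receptor through which the bone hormone FGF23 acts on the tubule. Slc34a2 carries phosphate in lung and small intestine, Trpv5 is the calcium channel of the distal tubule, and Calb1 is a calcium-binding protein of the same cells and of some neurons.

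On the mm10 build, Cyp24a1 lies at chr2:170482708-170497145 on the minus strand, Cyp27b1 at chr10:127048250-127053006 on the plus strand and Vdr at chr15:97854425-97910630 on the minus strand. Pth1r lies at chr9:110722085-110747145 on the minus strand and Kl at chr5:150952607-150993817 on the plus strand. The phosphate transporter genes lie at chr13:55398187-55415592 (Slc34a1, plus), chr5:53038081-53071664 (Slc34a2, plus) and chr2:25228898-25234364 (Slc34a3, minus). Trpv5 lies at chr6:41652173-41680769 on the minus strand and Calb1 at chr4:15881264-15908064 on the plus strand. Cyp24a1 overlaps Pfdn4, Pth1r overlaps Myl3, Slc34a1 overlaps Pfn3 and Slc34a2 overlaps Gm17182, each on the opposite strand; the counting strand is not given in the sources used here, so reads of the overlapping parts cannot be told apart.

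RefSeq promoters (GRCm38.p6) were matched for 8 of the 10 genes, all but Cyp24a1 and Calb1. The 250 bases before the start site are shown for the kidney phosphate transporters Slc34a1 and Slc34a3 and for Kl, the genes that moved together in the kidney below, and for Vdr, the gene with the most drug differences. Capitals mark the motifs found on either strand: the HNF1 half-site GTTAAT in Slc34a1, the CCAAT box in Slc34a3, and the GC box GGGCGG in Kl and Vdr.
Slc34a1, chr13:55399398-55399647, plus strand: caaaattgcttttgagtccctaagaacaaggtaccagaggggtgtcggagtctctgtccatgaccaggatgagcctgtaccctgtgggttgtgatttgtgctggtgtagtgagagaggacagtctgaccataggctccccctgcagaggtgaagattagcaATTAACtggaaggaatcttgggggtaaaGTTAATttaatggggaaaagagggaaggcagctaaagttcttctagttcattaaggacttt
Slc34a3, chr2:25234235-25234484, minus strand: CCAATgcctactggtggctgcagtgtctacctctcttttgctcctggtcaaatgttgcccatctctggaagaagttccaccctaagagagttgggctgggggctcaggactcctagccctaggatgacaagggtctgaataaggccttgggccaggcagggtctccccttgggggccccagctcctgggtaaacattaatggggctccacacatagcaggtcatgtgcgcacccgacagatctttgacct
Kl, chr5:150952357-150952606, plus strand: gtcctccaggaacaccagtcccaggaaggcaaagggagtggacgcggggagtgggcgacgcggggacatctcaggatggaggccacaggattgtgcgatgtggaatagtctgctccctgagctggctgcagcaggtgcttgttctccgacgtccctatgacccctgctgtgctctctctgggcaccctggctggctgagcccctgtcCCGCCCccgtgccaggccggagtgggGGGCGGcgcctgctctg
Vdr, chr15:97908297-97908546, minus strand: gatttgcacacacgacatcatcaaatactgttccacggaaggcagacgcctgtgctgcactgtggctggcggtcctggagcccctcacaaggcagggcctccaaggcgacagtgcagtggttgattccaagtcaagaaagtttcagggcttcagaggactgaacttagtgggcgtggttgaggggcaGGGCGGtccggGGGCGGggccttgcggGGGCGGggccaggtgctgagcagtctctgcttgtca
The windows of Slc34a1 and Vdr lie wholly inside the gene spans given above, and that of Slc34a3 lies partly inside. Their RefSeq start sites are therefore not the outer ends of those spans. Counted from the start site of its window, the HNF1 half-sites of Slc34a1 spanned positions -89 to -84 and -61 to -56. The CCAAT box of Slc34a3 spanned -250 to -246, at the far edge of the window. The GC boxes of Kl began at -43 and -17, and those of Vdr at -63, -52 and -36. Among 32851 promoters of the same length, 6.43% held the HNF1 half-site, 33.8% the CCAAT box and 32.7% the GC box, so only the first of these is uncommon. None of the 8 matched genes held the cAMP response element TGACGTCA, found in 1.55% of promoters, or the vitamin D response element of the DR3 type, found in 0.0396%. The DR3 search took exact letters only and matched few promoters at all, so a lack of matches in these 8 genes says little. Cyp24a1 and Calb1 were not searched. These matches describe the letters of the windows only.

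In Untreated mice 6 of the 10 genes were highest in the kidney and at 10 CPM or more there: Cyp24a1, Pth1r, Kl, Slc34a1, Slc34a3 and Calb1. Slc34a2 was highest in the lung. Vdr was spread over gut and kidney. Cyp27b1 and Trpv5 were near the detection limit in every tissue. The kidney was set against each other tissue for those 6 genes, the lung for Slc34a2 and the ileum for Vdr, with edgeR's quasi-likelihood F test, Benjamini-Hochberg adjustment and a threshold of 0.05. For all but Vdr this tissue was also the one with the highest level, and a gene read in few tissues could pass the filter on low counts through that tissue alone. That 182 of 184 differences passed, 181 of them higher, is therefore given as a description. Over all genes and tissues, 24.5% of kidney differences, 25.5% of lung differences and 22.8% of ileum differences were called higher. Fold changes here and below are fitted on normalised library sizes and can differ from ratios of CPM.

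**Figure D1:**
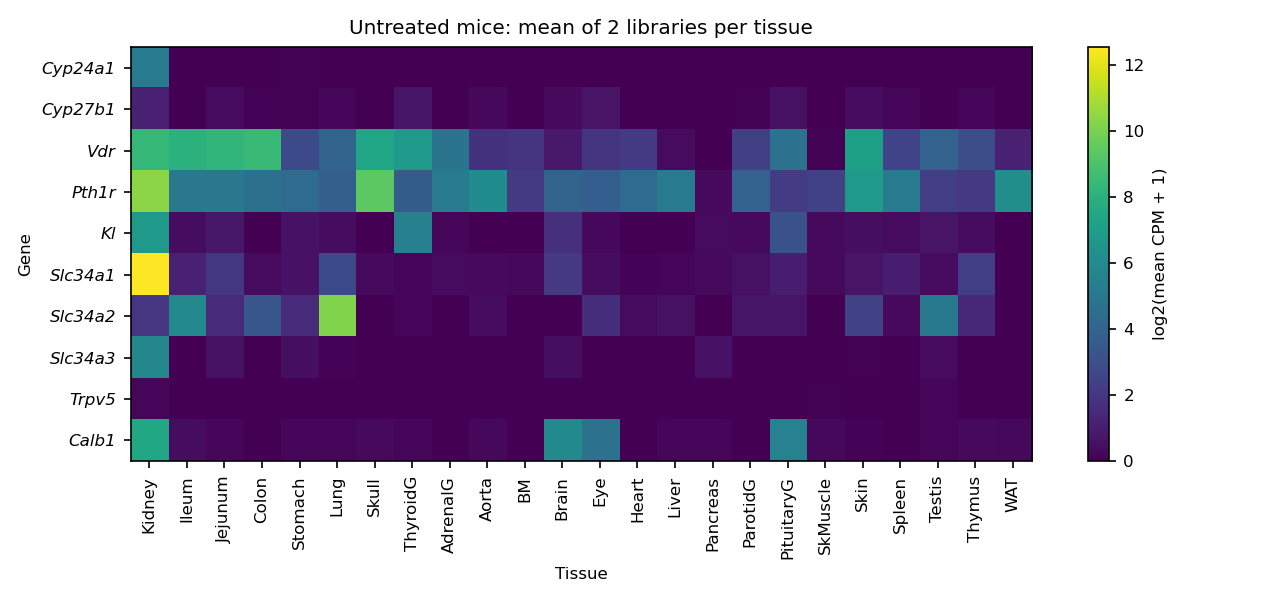
Levels of the 10 genes in 24 tissues of Untreated mice. Rows are genes, columns are tissues, and the colour gives log2(mean CPM + 1) over 2 libraries; Slc34a1 at 5670.2 and 6162 CPM in kidney and Slc34a2 at 1303 and 953 CPM in lung are single bright cells, whereas Vdr and Pth1r are spread over many tissues.

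Slc34a1, the main phosphate transporter of the proximal tubule, counted 5670.2 and 6162 CPM in Untreated kidney. The next tissue, lung, gave 0.356 and 11.5 CPM, and thymus, brain and jejunum likewise had 1 library above 5 CPM and the other below 1 CPM. Slc34a3, its minor partner in the same cells, counted 52.5 and 55.8 CPM in kidney, and the next tissue, pancreas, averaged 0.536 CPM; 16 tissues had no count at all. Cyp24a1, the vitamin D breakdown enzyme, counted 42.1 and 27.9 CPM in kidney and no read in 22 of 24 tissues. For these 3 genes the kidney thus stood further above the next tissue than for the receptor genes Pth1r and Kl. By the number of tissues with a mean of at least 1 CPM, Slc34a1 (6) was not more restricted than Kl (4).

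Kl counted 145 and 73.8 CPM in kidney, against 51.5 and 34.1 CPM in thyroid gland, a log2 difference of 1.67 ± 0.32 (SE, adjusted p = 4.20e-05). Pituitary gland followed with 5.97 and 9.72 CPM and brain with 2.48 and 1.92 CPM; every other tissue averaged below 1 CPM. Calb1 counted 184 and 183 CPM in kidney, against 58.2 and 61.3 CPM in brain, a log2 difference of 0.95 ± 0.21 (adjusted p = 0.000193). Pituitary gland (39.7 and 52.4 CPM) and eye (25.0 and 25.7 CPM) were the remaining tissues in which Calb1 averaged at least 1 CPM. For both genes the tissues named did not overlap in their library values.

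Pth1r, the receptor for parathyroid hormone and its related peptide, counted 1225 and 1427 CPM in kidney, against 709 and 628 CPM in skull, its other classical target. The log2 difference was 1.27 ± 0.17 (adjusted p = 4.43e-08). Skin followed at 121 and 93.5 CPM, white adipose tissue at 66.2 and 79.0 CPM and aorta at 79.4 and 55.1 CPM, of which the last pair overlapped. All remaining tissues, headed by spleen at 39.1 and 33.6 CPM, lay below these. Pth1r averaged at least 1 CPM in 23 of 24 tissues, all but pancreas.

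Vdr was highest in colon (349.7 and 334 CPM), kidney (339 and 316 CPM), jejunum (364 and 249.6 CPM) and ileum (281 and 237 CPM), and neighbours in this order overlapped. In the fit, the ileum was lower than the kidney by a log2 difference of -0.55 ± 0.15 (adjusted p = 0.00243), whereas its differences from colon (-0.40 ± 0.15, adjusted p = 0.0608) and jejunum (-0.14 ± 0.15, adjusted p = 0.768) did not pass. Next came skull (159 and 172 CPM), skin (143 and 130.3 CPM) and thyroid gland (99.5 and 110.0 CPM), which did not overlap one another. Adrenal gland, pituitary gland, lung and testis had between 13.6 and 31.8 CPM. Vdr averaged at least 1 CPM in 20 tissues and had no count in pancreas.

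Slc34a2 counted 1303 and 953 CPM in lung, against 79.6 and 37.6 CPM in ileum, a log2 difference of 4.19 ± 0.31 (adjusted p = 3.08e-10). Testis gave 29.2 and 36.0 CPM, colon 12.5 and 5.98 CPM and skin 2.97 and 5.84 CPM; kidney, eye, stomach, jejunum and thymus averaged between 1.68 and 2.96 CPM. The jejunum, at 2.14 and 1.57 CPM, was therefore far below the ileum. Cyp27b1 averaged 1.25 CPM in kidney and 0.627 CPM in thyroid gland, and Trpv5 averaged 0.114 CPM in kidney and 0.139 CPM in testis with no count in 21 tissues. These levels were too low to be tested between tissues.

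The genes whose levels over the 24 tissues were most like each member were named by Pearson correlation of log2(mean CPM + 1), a description that says nothing of shared control. Slc34a1 was closest to Kap (r = 0.994), Acsm2 (0.985) and Umod (0.977), and Slc34a3 to Gm853 (0.987), Cyp24a1 (0.986) and Hsd3b4 (0.986). Cyp24a1 was closest to Cyp2j11, Cldn16 and Gm6300, each at 0.9998. Kl was closest to Rnf183 (0.933), Calb1 to Slc35f3 (0.896), Slc34a2 to BC051019 (0.886), Vdr to Snx7 (0.826) and Pth1r to Dab2 (0.798). Genes found in a single tissue necessarily reach high values over 24 points.

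Levels also differed between library sets, which is why no drug was compared across them. In kidney without Cisplatin, median Pth1r was 1282 CPM in set A, 762 CPM in set B and 483 CPM in set C. Median Kl was 139, 319 and 298 CPM in sets A, B and C, and median Slc34a1 4837, 3223 and 3206 CPM. Median Slc34a3 was 42.1, 43.0 and 42.2 CPM, but these medians include the drugged libraries. Its controls differed, at 41.2 to 55.8 CPM with Sucrose and Untreated in set A, against 29.9 and 35.9 CPM with CMCTween in set C.

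Across the 15 drugs, the 10 genes gave 120 tested comparisons in kidney, of which 12 (10%) passed an adjusted p of 0.05, 4 higher and 8 lower with the drug. Over all genes, 3.71% of kidney comparisons passed. In the 4 gut tissues (stomach, jejunum, ileum and colon) 15 of 165 (9.09%) passed, 8 higher and 7 lower, beside 3.6% for all genes, and in the other 19 tissues 27 of 525 (5.14%) passed, 15 higher and 12 lower, beside 2.63%. Vdr had 24 of these 54 differences, Pth1r 12 and Slc34a2 10. Cyp24a1 had none at that threshold, and Trpv5 was too low to be tested anywhere.

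Cisplatin, a platinum drug used against tumours and known to injure the kidney tubule, gave the largest of the kidney changes that passed. Slc34a1, Slc34a3, Kl, Calb1 and Pth1r were all lower in Cisplatin kidneys than in CMCTween kidneys, the first 4 of them by more than 4-fold in the fit, in a comparison in which 23% of all genes passed. All 5 kept their direction and passed under every alternative setting and with any library left out.

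Slc34a1 counted 292 and 901 CPM in Cisplatin kidneys, against 3192 and 3165 CPM in CMCTween kidneys. Both Cisplatin values lay far below the whole remainder of the set, which spanned 3025 to 3355 CPM over 16 libraries. The log2 fold change was -2.51 ± 0.27 (SE from the spread over all kidney groups, n = 2 each, adjusted p = 5.72e-07). Slc34a3 counted 0 and 10.2 CPM in Cisplatin kidneys, against 29.9 and 35.9 CPM in CMCTween kidneys, and the groups did not overlap (-2.91 ± 0.48, adjusted p = 1.07e-06). For both phosphate transporters the Cisplatin library with replicate number 1 was the lower.

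Kl counted 47.3 and 80.5 CPM in Cisplatin kidneys, against 341 and 342 CPM in CMCTween kidneys (log2 fold change -2.53 ± 0.27, adjusted p = 2.09e-07). Calb1 counted 73.4 and 81.8 CPM in Cisplatin kidneys, against 351 and 296 CPM in CMCTween kidneys (-2.15 ± 0.16, adjusted p = 4.17e-18). In both genes the groups were well apart, and the Cisplatin libraries were also below every other kidney library of the set. Pth1r changed less, with 288 and 336 CPM in Cisplatin kidneys, against 439 and 459 CPM in CMCTween kidneys (-0.61 ± 0.13, adjusted p = 0.000109), again without overlap.

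The vitamin D genes did not pass. Vdr counted 234 and 264 CPM in Cisplatin kidneys, against 296 and 275 CPM in CMCTween kidneys (log2 fold change -0.28 ± 0.14, adjusted p = 0.144). Cyp24a1 counted 81.5 and 109.9 CPM in Cisplatin kidneys, against 66.5 and 45.2 CPM in CMCTween kidneys (0.67 ± 0.45, adjusted p = 0.333). In both genes the library values of the groups did not overlap. With 2 libraries each, this often happens without any difference, so a lack of overlap carries little weight here and elsewhere in the text. Slc34a2, nearly absent from kidney, gave 19.1 and 11.5 CPM in Cisplatin kidneys, against 0 and 2.32 CPM in CMCTween kidneys; these are 28 counts against 2, a ratio of 13.9 with a 95% interval of 3.51 to 120.4 that covers counting error only, and the gene was too low for the test.

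**Figure D2:**
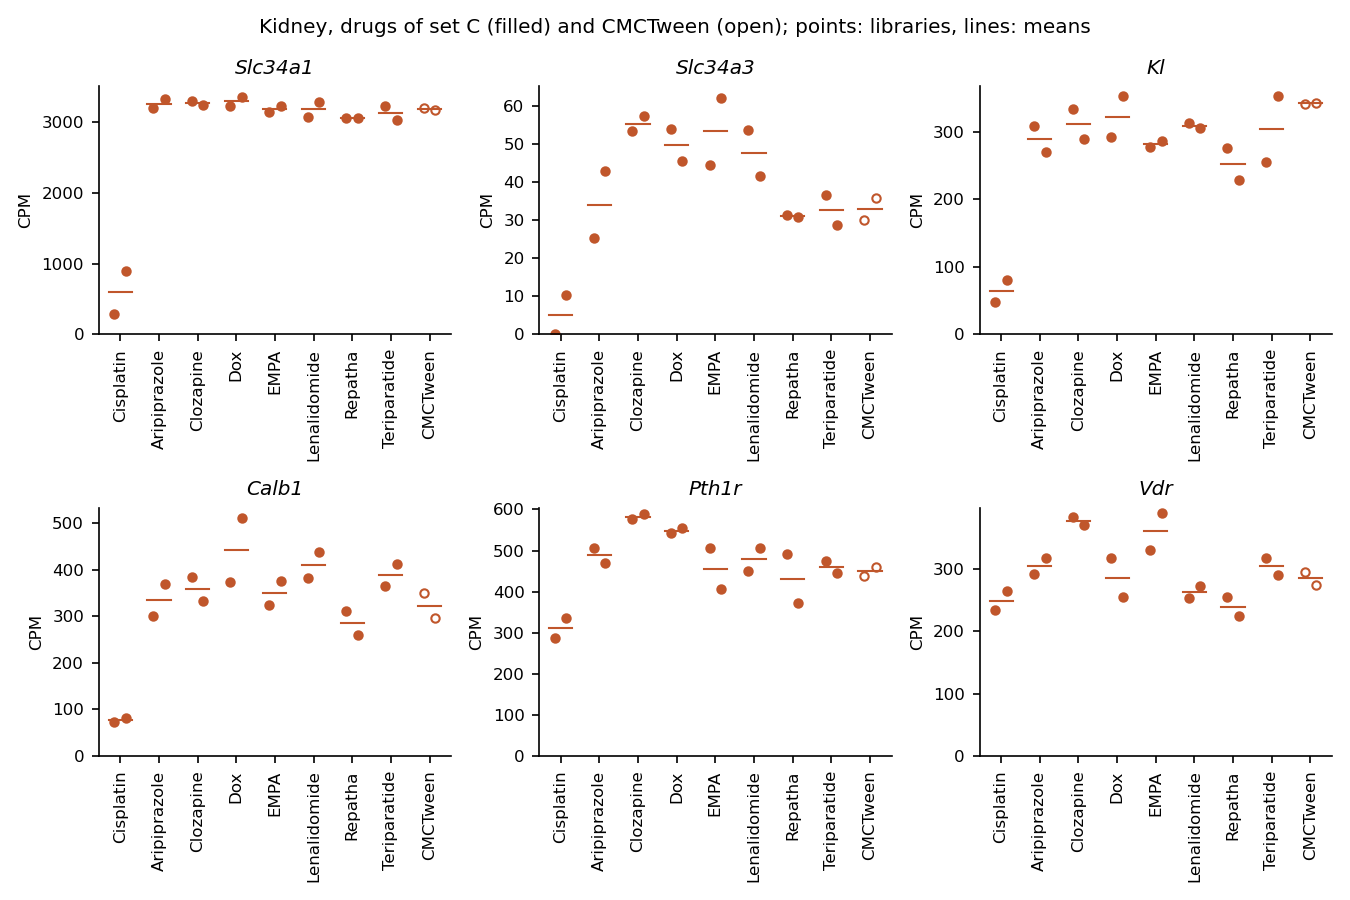
Kidney levels of Slc34a1, Slc34a3, Kl, Calb1, Pth1r and Vdr in CPM (vertical axes, linear) for the 8 drugs of set C and, at the right with open points, the CMCTween vehicle; each point is 1 library. The 2 Cisplatin libraries stand below all others for Slc34a1, Slc34a3, Kl, Calb1 and Pth1r, with Slc34a1 at 292 and 901 CPM, whereas Vdr at 234 and 264 CPM lies within the range of the set.

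Other genes of mineral handling moved in the same kidneys. Of 10 tested genes for vitamin D supply and action, 5 fell with Cisplatin and 1 rose, with a median log2 fold change of -0.63, beside 0.000689 over all genes. Those that fell were led by Lrp2 (-1.74), which encodes megalin, the tubular receptor for filtered vitamin D-binding protein, and also included Rxra (-0.88), the partner receptor of Vdr, and Amn (-0.84), Cubn (-0.62) and Dab2 (-0.51) of the same uptake machinery. The 1 that rose was Gc, the vitamin D-binding protein itself, at a mean of 776 CPM in Cisplatin kidneys, against 69.6 CPM in CMCTween kidneys (3.39).

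Of 13 tested calcium and magnesium transport genes, 5 fell and none rose, with a median of -0.16. Egf, a hormone of magnesium handling, fell most, to a mean of 40.5 CPM in Cisplatin kidneys, against 459 CPM in CMCTween kidneys (log2 fold change -3.67), followed by Pvalb (-3.04), the calcium exchanger Slc8a1 (-2.24), the magnesium channel Trpm6 (-2.12) and Trpm7 (-0.63). Of 12 tested phosphate and FGF23 genes, 4 fell, namely Fgfr4 (-1.45), the scaffold Pdzk1 (-1.27), Enpp1 (-0.84) and the phosphate exporter Xpr1 (-0.58), and the housekeeping phosphate transporter Slc20a1 rose (1.38); the median was -0.49. Of 4 tested genes on the parathyroid hormone list, the early response genes Nr4a1 (3.51) and Rgs2 (1.26) rose and none fell, with a median of 0.79. Whether the receptor had a part in their rise was not tested.

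Markers of the tubule cells moved with these genes. Summed proximal tubule markers were 1946 to 3168 CPM in Cisplatin kidneys, against 6475 to 6609 CPM in CMCTween kidneys, with 8 of 9 tested markers lower. Markers of the distal convoluted and connecting tubule, where Calb1 is found, were 1064 to 1253 CPM in Cisplatin kidneys, against 2079 to 2096 CPM in CMCTween kidneys, with 5 of 5 lower. Collecting duct markers held at 481 to 494 CPM in Cisplatin kidneys, against 444 to 531 CPM in CMCTween kidneys, with 1 of 6 lower. The 6 kidney injury genes were all higher, at 3513 to 5106 CPM in Cisplatin kidneys, against 208 to 248 CPM in CMCTween kidneys. No listed marker was at 0 in these groups as a whole, and their part in the result was not tested. In whole tissue, fewer cells of a type and less RNA per cell cannot be told apart.

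APAP, the painkiller acetaminophen sampled here at 2 hours, was the other drug with several kidney differences, in a comparison in which 14.4% of all genes passed. Vdr rose, whereas Slc34a1, Slc34a3 and Pth1r fell. Vdr counted 639.6 and 600.4 CPM in APAP kidneys, against 392 and 314 CPM with Sucrose and 339 and 316 CPM in Untreated kidneys. Both APAP values were above those of every other kidney library of set A. The log2 fold change was 0.83 ± 0.10 (SE, n = 2 against 4, adjusted p = 1.64e-09), and it passed under every alternative.

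Slc34a1 counted 3166 and 3120.3 CPM in APAP kidneys, against 4913 and 4847 CPM with Sucrose and 5670.2 and 6162 CPM in Untreated kidneys (log2 fold change -0.81 ± 0.22, adjusted p = 0.0157). Slc34a3 counted 29.2 and 24.2 CPM in APAP kidneys, against 43.6 and 41.2 CPM with Sucrose and 52.5 and 55.8 CPM in Untreated kidneys (-0.88 ± 0.24, adjusted p = 0.00762). Pth1r counted 1059.8 and 1103 CPM in APAP kidneys, against 1365 and 1292 CPM with Sucrose and 1225 and 1427 CPM in Untreated kidneys (-0.34 ± 0.10, adjusted p = 0.0104). None of the 3 overlapped its controls. All 3 missed the threshold with Sucrose as the only control. Leaving out 1 APAP library also ended the call for Slc34a1 (adjusted p = 0.116 and 0.134), for Pth1r (0.144 and 0.0752) and, for 1 of the 2, for Slc34a3 (0.165); Pth1r was lost as well without an Untreated library (0.0603).

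**Figure D3:**
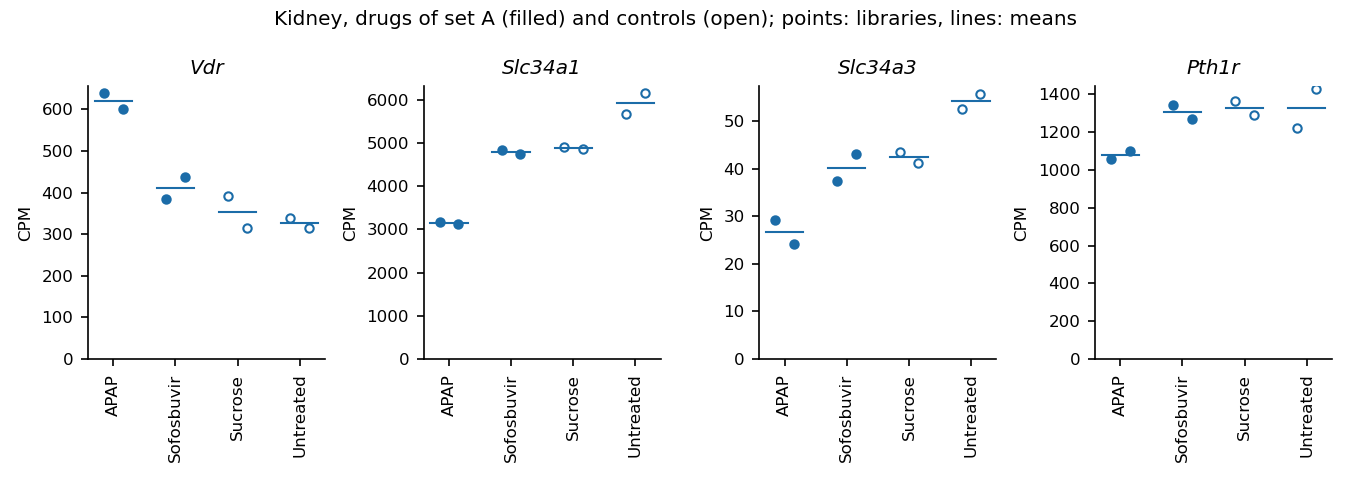
Kidney levels of Vdr, Slc34a1, Slc34a3 and Pth1r in CPM (vertical axes, linear) for APAP and Sofosbuvir and, with open points at the right, Sucrose and Untreated; each point is 1 library. Vdr at 639.6 and 600.4 CPM with APAP is above all other points, and Slc34a1 at 3166 and 3120.3 CPM is below them.

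In the same APAP kidneys, 1 of 10 tested vitamin D genes fell, Lrp2, to a mean of 2049 CPM with APAP, against 3571 CPM in controls (log2 fold change -0.83), and none rose. Of 13 calcium and magnesium genes, Sgk1, a kinase that raises tubular salt transport, rose (2.19) and 4 fell, namely Trpm6 (-1.62), Pvalb (-0.87), the calcium pump Atp2b4 (-0.58) and Slc8a1 (-0.45). Of 12 phosphate genes, Slc20a1 rose (1.12) and 4 fell, among them Slc9a3r1 (-1.17) and Pdzk1 (-0.82), scaffold proteins that hold Slc34a1 at the brush border. Of 4 parathyroid hormone genes, Nr4a1 rose (4.18). The median over all genes was -0.03. Proximal tubule markers summed to 4050 to 4315 CPM in APAP kidneys, against 5463 to 5834 CPM in controls, with 3 of 9 lower, and 1 of 6 injury genes was higher (158 to 208 CPM with APAP, against 119 to 170 CPM in controls); their part in the result was not tested.

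Of the kidney comparisons of the vitamin D enzymes, only Cyp27b1 with Risedronate passed. The highest Cyp24a1 values of set C and the highest Cyp27b1 values of set B fell under 2 bone drugs. Cyp27b1 was low and groups had 2 libraries, so a comparison that did not pass does not show a lack of response. Teriparatide is an active fragment of parathyroid hormone, and Risedronate is a bisphosphonate. Cyp24a1 counted 199 and 208 CPM in Teriparatide kidneys, against 66.5 and 45.2 CPM in CMCTween kidneys. The Teriparatide values were the highest of the kidney libraries of set C. The log2 fold change was 1.86 ± 0.40, and it missed the threshold (adjusted p = 0.0871) in a comparison in which 0.0885% of all genes passed. It passed with DESeq2 (adjusted p = 0.00779), without the robust option (0.00462) and when every other group of set C served as control (1.36, adjusted p = 0.0159), and not with any of the 4 libraries left out (0.227 to 0.599).

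Cyp27b1 counted 3.13 and 1.06 CPM in Teriparatide kidneys, against 3.33 and 12.8 CPM in CMCTween kidneys, values that nearly meet (log2 fold change -1.87 ± 0.81, adjusted p = 0.469). Trpv5 gave 6 counts in Teriparatide kidneys, against 2 in CMCTween kidneys, a ratio of 2.78 with a 95% counting interval of 0.498 to 28.2. Of the listed mineral genes, only S100g, the calcium carrier calbindin-D9k, passed with Teriparatide in kidney, at a mean of 1702 CPM, against 1105 CPM with CMCTween (0.62, adjusted p = 0.00884).

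Cyp27b1 was higher with Risedronate, at 35.9 and 26.7 CPM (25 and 18 counts), against 4.04 to 14.7 CPM (median 11.4) with the other 4 drugs of its set. The log2 fold change was 1.64 ± 0.39 (adjusted p = 0.0493), in a comparison in which 0.128% of all genes passed. The groups did not overlap, but the call was lost with another normalisation, without the robust option and with 7 of the 10 libraries left out in turn, where the adjusted p reached 0.640.

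**Figure D4:**
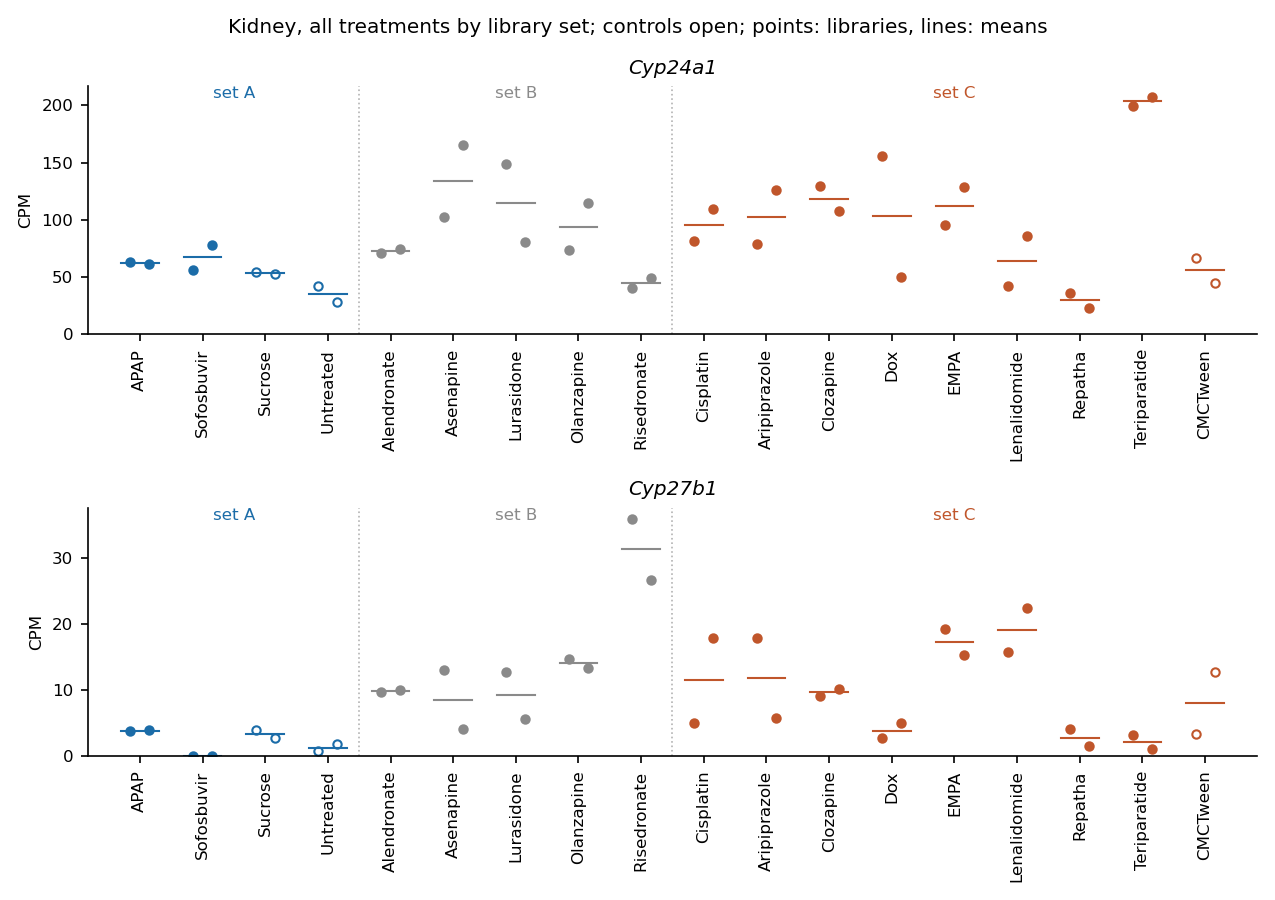
Kidney levels of Cyp24a1 and Cyp27b1 in CPM (vertical axes, linear) for every treatment, grouped by library set; each point is 1 library and controls are open. Within set C, Cyp24a1 peaks with Teriparatide at 199 and 208 CPM. Within set B, Cyp27b1 peaks with Risedronate at 35.9 and 26.7 CPM.

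Among the antipsychotics of set B, kidney Vdr counted 355 and 433 CPM with Asenapine, against 231 to 366 CPM (median 272) with the other 4 drugs. The groups overlapped (log2 fold change 0.47 ± 0.11, adjusted p = 0.00406; 3.83% of all genes passed), and the call was lost without the higher Asenapine library (adjusted p = 0.410). Kidney Pth1r counted 832 and 1059 CPM with Lurasidone, against 627 to 843 CPM (median 721) with the others (0.38 ± 0.09, adjusted p = 0.00935; 3.91% of all genes passed). It also overlapped and was lost without the higher Lurasidone library (adjusted p = 0.585). Of the listed genes, Lrp2 fell (-0.35) and Slc20a1 rose (0.73) with Asenapine, and Alpl, a phosphatase, rose (0.36) with Lurasidone.

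In the gut, Vdr was lower with Cisplatin in all 3 intestinal segments, most in the ileum. It counted 39.9 and 38.5 CPM in Cisplatin ileum, against 265 and 349 CPM in CMCTween ileum (log2 fold change -3.04 ± 0.22, adjusted p = 1.79e-15). In jejunum it counted 65.2 and 80.8 CPM with Cisplatin, against 386 and 268 CPM with CMCTween (-2.17 ± 0.28, adjusted p = 8.59e-06). In colon it counted 197 and 201 CPM with Cisplatin, against 328 and 331 CPM with CMCTween (-0.78 ± 0.14, adjusted p = 5.49e-05). No segment overlapped, and all 3 calls held under every alternative. In these comparisons 29.2% of all genes passed in ileum, 5.54% in jejunum and 10.9% in colon.

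The difference between segments was tested as an interaction of drug and tissue, for pairs chosen after the values were seen. The Cisplatin change of Vdr in ileum minus that in colon was -2.22 ± 0.27 on the log2 scale (adjusted p = 3.92e-08; 8.96% of all genes passed) and that in jejunum minus that in colon was -1.35 ± 0.26 (adjusted p = 0.00342; 0.787% passed). Ileum minus jejunum was -0.86 ± 0.31, which did not pass (adjusted p = 0.147; 2% of genes passed).

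**Figure D5:**
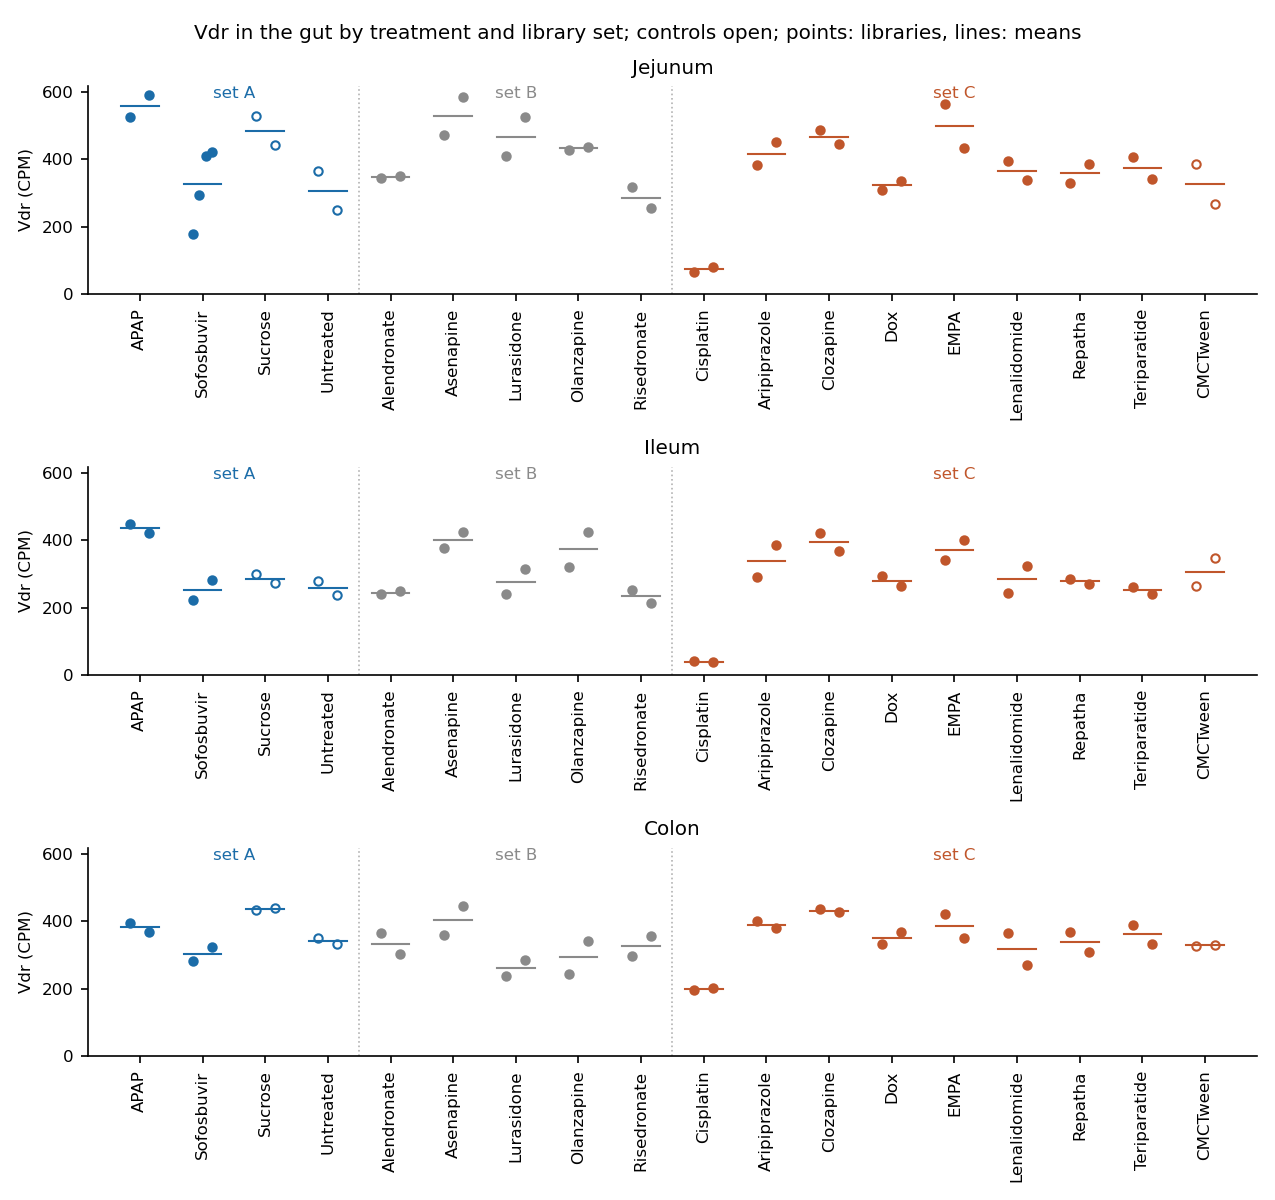
Vdr in jejunum, ileum and colon in CPM (vertical axes, linear) for every treatment, grouped by library set; each point is 1 library and controls are open. Cisplatin gives the lowest values of set C in every panel, at 39.9 and 38.5 CPM in ileum, and APAP gives 449 and 423 CPM there.

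Enterocyte markers, which share the epithelium with Vdr, summed to 2706 to 2757 CPM in Cisplatin ileum, against 1998 to 2460 CPM in CMCTween ileum, with 2 of 8 lower. In jejunum they summed to 14312 to 14822 CPM with Cisplatin, against 2871 to 3108 CPM with CMCTween, with 0 of 8 past the threshold. Goblet and Paneth cell markers were lower, at 4787 to 4802 CPM in Cisplatin ileum, against 15937 to 26600 CPM in CMCTween ileum (4 of 6), and at 6997 to 7531 CPM in Cisplatin jejunum, against 11206 to 30274 CPM in CMCTween jejunum (2 of 6). In colon, smooth muscle markers were lower at 2758 to 3585 CPM with Cisplatin, against 5032 to 5219 CPM with CMCTween (4 of 5). The part of these cell types in the result was not tested.

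Of the pathway lists in Cisplatin ileum, the phosphate genes rose in 5 of 11 and fell in none, with a median of 1.003, beside -0.02 for all genes. They were Alpl (4.38), Fam20c (4.31), Enpp1 (1.57), Fgfr1 (1.44) and Slc20a1 (1.16). Of 8 vitamin D genes, Dab2 rose (2.27) and Dhcr7 (-2.16), which draws off the precursor of vitamin D towards cholesterol, and Pdia3 (-0.76) fell. Of 11 calcium and magnesium genes, Slc41a3 (1.87) and Atp2b4 (0.71) rose and Cldn2 (-1.54), a channel-forming claudin, fell; Rgs2 (0.85) rose among 4 parathyroid hormone genes. In Cisplatin jejunum the listed genes that passed were Nr4a1 (2.47), which rose, and Fgfr3 (-1.72), which fell. In Cisplatin colon Rxrb (-0.97) and Pdia3 (-0.36) fell among 7 vitamin D genes, and among the phosphate genes Slc9a3r1 (1.5001) and Fgfr1 (0.99) rose and Fgfr3 (-1.73) and Xpr1 (-0.68) fell; Nr4a1 (1.51) and Rgs2 (0.75) rose there too.

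With APAP, Vdr rose in the ileum, to 449 and 423 CPM, against 299 and 272 CPM with Sucrose and 281 and 237 CPM in Untreated mice (log2 fold change 0.78 ± 0.14, adjusted p = 6.11e-05; 16.2% of all genes passed). The groups did not overlap, and the call held under every alternative. In jejunum Vdr counted 526 and 592 CPM with APAP, against 529 and 442 CPM with Sucrose and 364 and 249.6 CPM in Untreated mice (0.66 ± 0.21, adjusted p = 0.0267; 21.5% passed). Here the groups overlapped, and the call was lost without either APAP library (adjusted p = 0.0866 and 0.141), Sucrose replicate 2 (0.102) or Untreated replicate 4 (0.0843), against Sucrose alone (0.491), without the filter on low counts (0.0622) and with the libraries of set A alone (0.189).

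Slc34a2, the intestinal phosphate transporter, was also higher with APAP in both segments. In ileum it counted 467 and 311 CPM with APAP, against 146 and 208 CPM with Sucrose and 79.6 and 37.6 CPM in Untreated mice (log2 fold change 2.02 ± 0.40, adjusted p = 0.00172). In jejunum it counted 35.6 and 24.7 CPM with APAP, against 7.83 and 0 CPM with Sucrose and 2.14 and 1.57 CPM in Untreated mice (3.55 ± 1.03, adjusted p = 0.0196). Neither overlapped. The ileum call was lost without the higher APAP library (adjusted p = 0.0555), the jejunum call under DESeq2 (0.318), without either APAP library (0.1397 and 0.0613), Sucrose replicate 2 (0.0698) or Untreated replicate 4 (0.0586), and both with Sucrose as the only control.

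Pth1r was lower with APAP in jejunum, at 4.32 and 8.58 CPM, against 23.5 and 22.5 CPM with Sucrose and 24.7 and 38.9 CPM in Untreated mice (log2 fold change -1.91 ± 0.58, adjusted p = 0.0181). In stomach it counted 4.11 and 10.2 CPM with APAP, against 21.5 and 18.9 CPM with Sucrose and 20.1 and 19.9 CPM in Untreated mice (-1.53 ± 0.42, adjusted p = 0.0114; 9.7% of all genes passed). The groups were apart in both, but both calls were lost against Sucrose alone. The jejunum call was also lost without either APAP library (adjusted p = 0.231 and 0.0730) without Untreated replicate 4 (0.0571) or with the libraries of set A alone (0.113), and the stomach call without APAP replicate 1 (0.294). Smooth muscle markers were lower beside it, at 408 to 695 CPM in APAP jejunum, against 1453 to 2487 CPM in controls (3 of 5), and at 3403 to 3839 CPM in APAP stomach, against 5888 to 6271 CPM in controls (2 of 5); their part was not tested.

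All 8 enterocyte markers were higher in APAP ileum, with sums of 4656 to 6816 CPM, against 515 to 3532 CPM in controls. In jejunum 1 of 8 passed, a smaller share than the 21.5% of all genes that passed there, although the sums were 13986 to 15715 CPM with APAP, against 449 to 8859 CPM in controls. Their part in the rise of Vdr and Slc34a2 was not tested. Of 8 vitamin D genes, Cubn, Cyp27a1 and Amn rose in ileum (3.004, 1.67 and 1.47) and in jejunum (3.32, 2.70 and 2.23), where Dab2 fell (-2.39). Of the calcium and magnesium genes, 1 of 11 rose and 2 fell in ileum and 1 of 9 rose and 2 fell in jejunum; Sgk1 rose in ileum (3.35) and jejunum (5.17), Cldn2 fell in jejunum (-1.53), and Atp2b4 fell in ileum (-1.25) and jejunum (-1.46). Of 11 phosphate genes, 3 rose and 1 fell in ileum and 2 rose and 1 fell in jejunum, and Pdzk1 rose in ileum (2.12) and jejunum (2.097).

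The remaining gut calls were smaller or rested on few libraries. Slc34a2 in ileum counted 76.0 and 101 CPM with Aripiprazole (log2 fold change 3.43 ± 0.83, adjusted p = 0.0158; 8.06% of genes passed) and 110.4 and 59.7 CPM with Repatha (3.39 ± 0.82, adjusted p = 0.0166; 8.3% passed), against 20.9 and 0 CPM with CMCTween. Both calls were lost without the CMCTween library at 0 (adjusted p = 0.316 and 0.353) and with every other group of the set as control (0.133 and 0.126). They were also lost without either Aripiprazole library (0.0516 and 0.111) and without Repatha replicate 1 (0.131), and with the libraries of set C alone (0.103 and 0.111). Enterocyte markers were 4151 to 4953 CPM with Aripiprazole and 3906 to 4282 CPM with Repatha, against 1998 to 2460 CPM with CMCTween, and their part was not tested. The scaffold gene Slc9a3r1 rose with Aripiprazole (1.66) and with Repatha (1.64), and Calb2, another calcium-binding protein, fell with both (-1.68 and -1.49).

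Vdr in ileum counted 378 and 424 CPM with Asenapine, against 213 to 424 CPM with the other drugs of its set (log2 fold change 0.60 ± 0.13, adjusted p = 0.0133; 0.648% of genes passed), and 254 and 213 CPM with Risedronate, against 239 to 424 CPM (-0.50 ± 0.14, adjusted p = 0.0138; 9.97% passed). In colon it counted 361 and 446 CPM with Asenapine, against 237 to 365 CPM (0.41 ± 0.11, adjusted p = 0.0198; 2.62% passed). All 3 overlapped the drugs they were set against. Leaving out 1 library ended each call: either Asenapine ileum library (adjusted p = 0.134 and 0.262), the lower Risedronate ileum library (0.395) and the higher Asenapine colon library (0.475). With Sofosbuvir, Vdr in colon counted 281 and 324 CPM, against 434 and 439 CPM with Sucrose and 349.7 and 334 CPM in Untreated mice (-0.41 ± 0.11, adjusted p = 0.0240; 4.77% passed), without overlap, and the call was lost against Untreated alone (0.298), without either Sofosbuvir library (0.286 and 0.0905) and without Sucrose replicate 2 (0.0572). S100g in the same colons averaged 172 CPM with Sofosbuvir, against 34.2 CPM in controls (2.66).

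In the lung, Slc34a2 is a gene of alveolar type 2 cells, which take up phosphate freed from surfactant. It counted 890.2 and 958 CPM with Asenapine, against 526 to 773 CPM with the other drugs of its set (log2 fold change 0.58 ± 0.10, adjusted p = 2.35e-05; 5.72% of genes passed). In set C it counted 510.4 and 585 CPM with Dox (0.61 ± 0.13, adjusted p = 0.0225; 0.198% passed), 556 and 558 CPM with Aripiprazole (0.52 ± 0.13, adjusted p = 0.00384; 9.76% passed) and 541 and 527 CPM with Cisplatin (0.48 ± 0.13, adjusted p = 0.0199; 4.47% passed), against 382 and 341 CPM with CMCTween. None of the 4 overlapped its comparison group, but the Dox call was lost with the libraries of set C alone (adjusted p = 0.0860). Summed alveolar type 2 markers were 21354 to 22053 CPM with Asenapine, against 15689 to 19904 CPM with the other drugs, with 2 of 5 tested higher and 1 lower. They were 17393 to 18779 CPM with Dox, 14514 to 16526 CPM with Aripiprazole and 16608 to 17667 CPM with Cisplatin, against 13609 to 14093 CPM with CMCTween. Of the 5 tested markers, 1 rose with Dox and none fell. With Aripiprazole 1 rose and 1 fell, and with Cisplatin 2 rose and none fell. Their part in the result was not tested.

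In skull, the bone sample, Pth1r and Vdr moved in opposite directions with APAP. Pth1r counted 406 and 362 CPM with APAP, against 536 to 709 CPM in controls (log2 fold change -0.74 ± 0.16, adjusted p = 0.00171; 8.95% of genes passed). Vdr counted 274 and 239 CPM with APAP, against 87.1 to 172 CPM in controls (0.86 ± 0.17, adjusted p = 0.000598). Neither overlapped, but the Pth1r call was lost against Sucrose alone (adjusted p = 0.0821) and the Vdr call against Untreated alone (0.0785). With Teriparatide, the ligand fragment of this receptor, Pth1r counted 185 and 214 CPM, against 144 and 158 CPM with CMCTween (0.72 ± 0.20, adjusted p = 0.0369; 2.11% passed). The values did not overlap, but the call was lost without any 1 of the 4 libraries (adjusted p = 0.0799 to 0.364) and without the robust option (0.0710). Osteoblast and osteocyte markers summed to 60983 to 63261 CPM with Teriparatide, against 23055 to 31937 CPM with CMCTween, with 5 of 7 higher, and their part was not tested. The osteocyte genes Phex (1.54) and Dmp1 (1.55) and the mineralisation gene Alpl (0.996) rose in the same comparison.

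Pth1r also differed in soft tissues. In spleen it counted 25.0 and 36.4 CPM with Cisplatin, against 12.4 and 5.22 CPM with CMCTween (log2 fold change 1.73 ± 0.43, adjusted p = 0.00623; 5.27% of genes passed), opposite to kidney. The kidney change minus the spleen change was -2.35 ± 0.42 (adjusted p = 1.86e-05; 8.6% of genes passed). In skin it counted 15.9 and 27.9 CPM with Cisplatin, against 39.2 and 52.4 CPM with CMCTween (-1.08 ± 0.36, adjusted p = 0.0399). In liver it gave 1 count with Cisplatin, against 15 with CMCTween, a ratio of 0.0714 with a 95% counting interval of 0.00170 to 0.464 (adjusted p = 0.0105; 9.96% passed). With APAP it was lower in liver, at 15.03 and 18.1 CPM, against 24.3 to 38.0 CPM in controls (-0.88 ± 0.30, adjusted p = 0.0376; 16.5% passed), and in parotid gland, at 7.67 and 2.80 CPM, against 12.7 to 36.0 CPM (-1.48 ± 0.48, adjusted p = 0.0424; 7.58% passed). None of these pairs of groups overlapped. The liver Cisplatin call was lost with DESeq2 (adjusted p = 0.124), the liver APAP call against Sucrose alone (0.2598) and the parotid call against Untreated alone (0.0898), with the libraries of set A alone (0.101) and without the robust option (0.0701). The skin call was lost with DESeq2 (0.0850) and without the robust option (0.0520).

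Skin Vdr had the most calls of any gene and tissue, and 1 of its 2 vehicle libraries was high. Each of 6 set C drugs was called lower, with libraries of 75.2 to 163 CPM, against 302 and 167 CPM with CMCTween, and none overlapped. The log2 fold changes were -1.37 for Repatha (adjusted p = 0.00157; 1.28% of genes passed), -1.35 for Teriparatide (0.000974; 1.82%), -1.03 for EMPA (0.0209; 1.07%), -1.03 for Lenalidomide (0.0334; 0.0798%), -0.93 for Aripiprazole (0.0160; 2.13%) and -0.67 for Cisplatin (0.0234; 15.1%). With every other group of the set as control, Teriparatide alone of the 6 passed (-0.57, adjusted p = 0.0474), and Cisplatin turned to 0.19. With the libraries of set C alone, the calls of Aripiprazole (0.0562), EMPA (0.0876) and Lenalidomide (0.186) were lost, and with DESeq2 that of Cisplatin (0.0518). Skin Vdr was higher with APAP, at 212 and 237 CPM, against 130.3 to 179 CPM in controls (0.58 ± 0.17, adjusted p = 0.0418; 4.22% passed), and with Asenapine, at 182 and 209 CPM, against 87.6 to 165 CPM (0.71 ± 0.16, adjusted p = 0.0172; 1.72% passed), neither with overlap. The APAP call was lost against Sucrose alone (0.202), with DESeq2 (0.103), without the filter (0.0598) and without the robust option (0.0573).

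In thymus, Vdr counted 35.6 and 33.6 CPM with Cisplatin, against 9.69 and 5.23 CPM with CMCTween (log2 fold change 2.02 ± 0.47, adjusted p = 0.000259), in a comparison in which 43.8% of all genes passed. The groups did not overlap. Markers of other tissues were also higher in these thymuses, with parathyroid markers at 70.6 to 466 CPM with Cisplatin, against 11.8 to 25.0 CPM with CMCTween (1 of 1 tested), and enterocyte markers at 49.1 to 80.1 CPM with Cisplatin, against 6.54 to 7.27 CPM with CMCTween (2 of 2 tested). Goblet and Paneth cell markers were at 212 to 263 CPM with Cisplatin, against 65.4 to 79.9 CPM with CMCTween (2 of 3 tested), and the part of these markers was not tested. In thyroid gland it counted 90.4 and 88.1 CPM with Cisplatin (1.65 ± 0.35, adjusted p = 0.00356; 3.82% passed) and 95.9 and 84.9 CPM with EMPA (1.73 ± 0.34, adjusted p = 0.0229; 0.0652% passed), against 20.5 and 25.3 CPM with CMCTween. The other drugs of the set spanned 15.8 to 103 CPM there, and both thyroid calls were lost with every other group of the set as control (0.0768 and 0.299), that of EMPA also without the robust option (0.0680). Parathyroid markers in the same samples summed to 9225 to 10995 CPM with Cisplatin and 3519 to 6393 CPM with EMPA, against 273 to 1608 CPM with CMCTween. Kl, which parathyroid cells also express, counted 119 and 74.6 CPM with Cisplatin and 131 and 43.4 CPM with EMPA, against 15.3 and 6.06 CPM with CMCTween, and did not pass (adjusted p = 0.0732 and 0.332). The part of the markers in the result was not tested.

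The Cisplatin change of Vdr in ileum minus that in thymus was -5.10 ± 0.42 on the log2 scale (adjusted p = 2.93e-13; 19.3% of genes passed) and minus that in thyroid gland was -4.72 ± 0.38 (adjusted p = 1.27e-10; 9.96% passed). The EMPA change of Vdr in skin minus that in thyroid gland was -2.83 ± 0.40 (adjusted p = 0.000296, 0.0513% of genes passed). These pairs too were chosen after the values were seen, with CMCTween as the only control. Its skin libraries stood apart at 302 and 167 CPM. The EMPA call in skin and both thyroid calls were lost with every other group of set C as control, as given above.

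The last calls concerned low counts or small shifts. In white adipose tissue Vdr counted 4.66 and 16.8 CPM with APAP, against 1.06 to 5.37 CPM in controls, with overlap (log2 fold change 2.36 ± 0.66, adjusted p = 0.0132; 16.4% of genes passed), and the call was lost against Sucrose alone (0.2104). In eye Slc34a2 gave 27 counts with Cisplatin, against 3 with CMCTween, a ratio of 8.72 with a counting interval of 2.68 to 44.9 (adjusted p = 0.0187; 5.48% passed). It had no count with Lurasidone, against 3.24 to 11.3 CPM with the other drugs of its set, which is at least 4.17-fold lower with a floor of 3 counts over the group (adjusted p = 0.0393; 1.83% passed), a call lost without the robust option (0.0507). Calb1 in brain, a gene of Purkinje cells and interneurons, counted 123 to 174 CPM in 4 Asenapine libraries, against 97.2 to 136 CPM in the other drugs of its set. Purkinje cell markers summed to 642 to 795 CPM with Asenapine, against 598 to 649.7 CPM with the others, with 1 of 3 tested higher, and their part was not tested. The Calb1 ranges overlapped (0.28 ± 0.09, adjusted p = 0.0249; 15.5% passed), and the call was lost with DESeq2 (0.0546) and with the libraries of set B alone (0.0555).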

How the data were processed

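Libraries of 24 tissues were made from 3′ ends of mRNA, per the labels' protocols. The authors deposited raw read counts per gene, 1 table per tissue; bcl2fastq 2.17, TopHat2 2.1.1, HTSeq 0.9.1 and the mm10 build are named per the submitters' processing notes, and the annotation used for counting is not given in the sources used here. CPM were computed here from each library's total of 451154 to 12811780 counts. Each tissue was fitted with all its treatments in edgeR 4.0.16 (R 4.3.3, limma 3.58.1): filterByExpr with a minimum count of 10, TMM normalisation and the robust quasi-likelihood F test, with Benjamini-Hochberg adjustment over all genes tested and a threshold of 0.05. The SE is the absolute log2 fold change divided by the square root of F. Each drug was compared within its library set; the sets rest on expression values and not on labels, and set B has no control. A separate fit compared the Untreated tissues. DESeq2 1.42.0 was an alternative. The test was checked on counts simulated for Teriparatide kidney (9826 genes), where it called 100% of genes raised 4-fold, 32% of those raised 2-fold, 28% of those at 0.5 of their level, 70% of those at 0.25 and 0.0831% of unchanged genes. The simulation gave all genes the same fixed spread and, apart from the changed genes, all libraries the same levels. Only genes above 10 CPM were changed, so these rates do not carry over to genes with a larger spread or lower counts.

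The 10 genes, the pathway lists and the marker lists were chosen with earlier results of these data known. All 10 were named: by their Untreated CPM where the mean was at least 1 CPM, by every passing comparison in kidney and gut, and elsewhere by passing comparisons that reached 5 CPM in either group. Listed pathway genes were named mainly for kidney and gut comparisons in which a member passed. In some comparisons all that passed were named, and in others only some or none. A listed gene that is not named may therefore also have passed. Promoter sequences come from RefSeq (GRCm38.p6). Over 442 pairs of libraries of a group, the chi-square per degree of freedom was 1.12 to 294 (median 2.41), and none was under 1.1. The lowest, in Sucrose brain, was close to counting noise. This check does not show that the libraries came from separate animals. Intervals and floors on counts are exact at 95% and cover counting error only, since PCR copies are not independent molecules.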

Additional observations from a re-analysis of the deposited data

Results flagged for a closer look

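Differences between tissues under 1 drug were tested as interactions for pairs chosen after the values were seen, and 6 passed. For Cisplatin, the log2 change of Vdr in ileum minus that in colon was -2.22, jejunum minus colon -1.35, ileum minus thymus -5.10 and ileum minus thyroid gland -4.72. The Cisplatin change of Pth1r in kidney minus that in spleen was -2.35, and the EMPA change of Vdr in skin minus that in thyroid gland was -2.83. Thyroid samples differed in their parathyroid markers, as given above, and skin Vdr with CMCTween had 1 high library.

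Slc34a2 in Sofosbuvir jejunum had 1 library at 0.973 CPM, which is 1 read, and 3 at 0 CPM, so that the gap to the nearest library was the whole range (ratio 1). A lone read among zeros always gives this ratio, so it says nothing of an outlying library. It was the 1 flagged among 6 checked pairs of a gene and a group of 4 libraries. Only Asenapine brain and Sofosbuvir jejunum had 4 libraries.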

How the results depend on the processing

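Of the 54 drug calls, DESeq2 kept 41, lost 6 and gave 7 no adjusted p, RLE normalisation kept 53, no filter on low counts kept 52 and a fit without the robust option, chosen after seeing the data, kept 47. Fitting the library set alone kept 41 of 51. Set C drugs against all other groups of their set kept 18 of 27, with Vdr in Cisplatin skin reversed to 0.19. Set A drugs kept 14 of 17 against Untreated alone and 5 of 17 against Sucrose alone. Without the filter, calls outside kidney and gut numbered 51 instead of 27. Leaving out 1 library gave 9 to 16 kidney calls and 12 to 21 gut calls instead of 12 and 15, and 181 to 183 tissue calls instead of 182; in the other tissues it was run for 4 skull libraries, with 26 calls each time. Kidney calls were fewest without an APAP library and most without a Cisplatin library.

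In kidney, the deviations of same-numbered libraries had r = -0.043 to 0.302 over 17 treatment pairs, 2 over 0.1; between Untreated tissues r was -0.395 to 0.477 over 153 tissue pairs (median 0.003), 36 over 0.1. Not every pair passed 0.1 in either check, and other drug comparisons were not checked, so the numbers were not taken to pair the samples. With a replicate block there were 10 kidney, 13 gut and 25 other calls and 134 tissue calls over the 18 tissues it could be fitted to, and 42 of the 54 drug calls remained. Those lost were Vdr with Asenapine in kidney (adjusted p = 0.156), ileum (0.306), colon (0.0816) and skin (0.238), Vdr in skin with APAP (0.0671), Aripiprazole (0.0563) and EMPA (0.0853), Cyp27b1 with Risedronate in kidney (0.0581), Pth1r with Teriparatide in skull (0.141), and Slc34a2 with Cisplatin in lung (0.0770), Lurasidone in eye (0.0737) and Repatha in ileum (0.0664). Groups of 2 libraries limit every result: at this depth the simulated test missed most genes changed 2-fold.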
